A study of Mus musculus with 8 samples.

Results

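The genes described here build and run the contractile machinery of skeletal muscle. They are a fixed list of 45 genes, chosen by name and found by their Ensembl mouse identifiers among the 27554 genes of the deposited count table. All 45 had at least 1 count in at least 1 library, 28 had a count in all 8 libraries, and 23 had more than 3 counts in all 8. The cells were muscle stem cells sorted from hindlimb muscle of C57BL/6NTac mice that carry a pair of reporter alleles, Pax7tm3955(T2A-ZsGreen)Tac and Myf5tm3956(T2A-E2Crimson)Tac. All 4 groups shared these alleles and were positive for the Pax7 reporter. The groups were female Myf5High, female Myf5Low, male Myf5High and male Myf5Low, where Myf5High and Myf5Low cells came from the upper and lower ends of E2Crimson brightness. Each group had 2 libraries of polyadenylated RNA, and a pool of 4 mice stood behind each library, so the values do not show how single mice vary. The age of the mice and any treatment were not given in the sources used here, and the labels did not say outright whether the Myf5High and Myf5Low cells of a pool number came from the same mice.

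A sarcomere is the repeating unit of a muscle fibre, in which thick filaments of myosin pull on thin filaments of actin. Tropomyosin and the troponin complex switch the thin filament on when calcium leaves the sarcoplasmic reticulum, and titin, the Z disc and the M band hold the filaments in place. Many of these proteins come in developmental, fast and slow isoforms from separate genes. Resting muscle stem cells lie under the fibre's basal lamina and are not themselves contractile, and sarcomere genes are switched on when their descendants differentiate and fuse.

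Levels are given as counts-per-million after TMM scaling (CPM), and 3 counts were worth 0.708 to 0.955 CPM before scaling, depending on the library. The libraries held 3140361 to 4238427 gene counts, and the listed genes together took 0.216% to 0.392% of them. Pax7, the factor that defines muscle stem cells, lay between 999 and 1496 CPM in the 8 libraries, and its summed marker list of 9 genes between 6196 and 8138 CPM, so the labelled cell type was present in each library. Myf5 itself lay between 39.4 and 128 CPM in Myf5High and between 25.0 and 49.8 CPM in Myf5Low (log2 fold change 1.19, edgeR adjusted p 0.0284). Male Myf5High replicate 1 was the highest of the 8 libraries for 16 of the 45 genes, while female Myf5High replicate 2 was the highest for 0. Among the 37 genes that passed the filter on low counts, 13 were highest in male Myf5High replicate 1, against 14.03% of all genes tested. Male Myf5Low replicate 2 was the highest for 7 of the 45 genes and for 5 of the 37, against 10.5% of all genes tested. Calls and medians that moved with these libraries are given with and without them. In sorted bulk samples, more RNA per cell and a larger share of cells that express a gene cannot be told apart.

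The promoters of 36 of the 45 genes were found in a RefSeq table of 300-base windows around transcript starts (GRCm38.p6). The windows are read from 5′ to 3′ along the gene, and motif positions count the first base of a match from the start site at 0. They were searched on both strands for the E-box CANNTG, the core of sites for Myod1 and Myog, and for the CArG box of serum response factor and the MEF2 site. Shown first are genes that were high together in male Myf5High replicate 1 and male Myf5Low replicate 2, then the genes that differed between Myf5High and Myf5Low cells. Capitals mark the motif matches.
Actc1, chr2:114052826-114053125, minus strand: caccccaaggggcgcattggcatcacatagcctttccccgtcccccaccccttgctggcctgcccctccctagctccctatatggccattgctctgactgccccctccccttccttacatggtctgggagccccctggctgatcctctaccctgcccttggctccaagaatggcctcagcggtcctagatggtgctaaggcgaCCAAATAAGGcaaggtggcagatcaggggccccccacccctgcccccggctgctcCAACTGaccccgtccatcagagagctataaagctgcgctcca
Ttn, chr2:76982498-76982797, minus strand: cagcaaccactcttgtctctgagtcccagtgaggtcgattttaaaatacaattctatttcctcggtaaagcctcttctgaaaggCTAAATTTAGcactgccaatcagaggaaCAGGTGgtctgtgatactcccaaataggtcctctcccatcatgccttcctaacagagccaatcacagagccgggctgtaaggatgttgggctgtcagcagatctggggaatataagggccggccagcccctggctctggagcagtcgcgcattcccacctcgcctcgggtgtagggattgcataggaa
Myh3, chr11:67078050-67078349, plus strand: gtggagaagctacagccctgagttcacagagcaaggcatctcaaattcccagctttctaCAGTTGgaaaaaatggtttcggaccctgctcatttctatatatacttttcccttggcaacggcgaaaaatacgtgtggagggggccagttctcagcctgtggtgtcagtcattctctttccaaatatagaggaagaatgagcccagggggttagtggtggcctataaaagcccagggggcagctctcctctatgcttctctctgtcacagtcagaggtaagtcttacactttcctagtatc
Ryr1, chr7:29125102-29125401, minus strand: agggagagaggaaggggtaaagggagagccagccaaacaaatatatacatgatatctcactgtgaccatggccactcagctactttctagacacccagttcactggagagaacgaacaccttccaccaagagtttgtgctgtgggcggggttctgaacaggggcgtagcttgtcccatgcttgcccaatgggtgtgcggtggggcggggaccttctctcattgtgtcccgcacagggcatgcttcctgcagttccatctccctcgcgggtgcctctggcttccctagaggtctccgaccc
Atp2a1, chr7:126463024-126463323, minus strand: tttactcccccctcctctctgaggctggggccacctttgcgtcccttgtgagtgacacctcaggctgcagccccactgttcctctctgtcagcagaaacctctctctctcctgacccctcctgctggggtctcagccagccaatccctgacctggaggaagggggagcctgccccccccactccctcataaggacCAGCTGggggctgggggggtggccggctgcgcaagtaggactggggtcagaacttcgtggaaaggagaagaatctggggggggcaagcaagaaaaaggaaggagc
Des, chr1:75360042-75360341, plus strand: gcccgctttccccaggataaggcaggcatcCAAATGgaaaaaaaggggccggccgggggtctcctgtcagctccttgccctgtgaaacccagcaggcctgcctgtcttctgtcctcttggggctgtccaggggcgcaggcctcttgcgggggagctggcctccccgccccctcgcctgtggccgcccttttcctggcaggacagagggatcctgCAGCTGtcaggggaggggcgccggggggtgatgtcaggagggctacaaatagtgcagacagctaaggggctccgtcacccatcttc

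The Actc1 window, of cardiac alpha-actin, held a CArG box at -47 and an E-box at 8. The Ttn window, of titin, held a MEF2 site at -166 and an E-box at -138, and the Myh3 window an E-box at -191. Of the genes that differed between the fractions, Atp2a1 had an E-box at -55, Des had E-boxes at -220 and -36, and the Ryr1 window matched none of the 3 motifs. Over all listed genes with a window, 30 of 36 had an E-box, 6 a CArG box and 4 a MEF2 site. Counted by promoter, because some genes have several starts, this was 83.7%, 16.3% and 9.3% of 43 promoters, beside 72.3%, 1.63% and 3.19% of 32851 promoters of the same length. A match is a match of letters only.

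**Figure D1:**
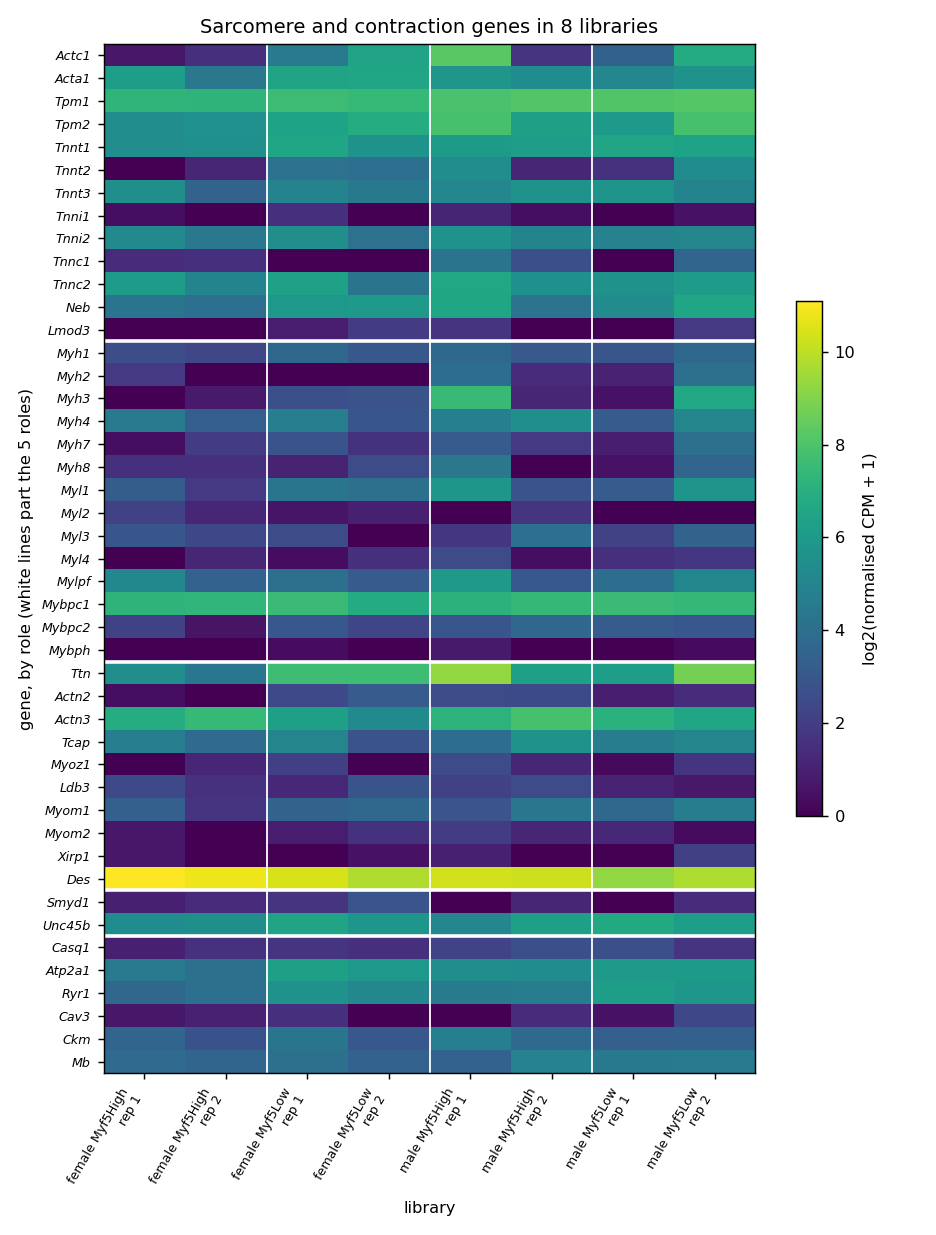
Level of each of the 45 genes (rows, by role) in each of the 8 libraries (columns), coloured by log2(CPM + 1). Des is bright in every column, Tpm1 and Mybpc1 are evenly high, and Actc1, Myh3, Ttn and Tpm2 are brightest in male Myf5High replicate 1 and male Myf5Low replicate 2.

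Per length of exon, desmin stood far above the other listed genes. Des, the intermediate filament of muscle cells, averaged 339 CPM per kilobase over the 8 libraries, followed by the fast troponin C gene Tnnc2 at 71.9, the fast-fibre alpha-actinin gene Actn3 at 42.9 and Actc1 at 41.4. Actc1 owed this place to male Myf5High replicate 1, where it was 130-fold above replicate 2 of that group. The tropomyosin genes Tpm2 and Tpm1 averaged 38.3 and 33.4 on this scale, the adult skeletal actin gene Acta1 36.9 and the slow myosin-binding protein gene Mybpc1 34.5. Ttn averaged 1.78 CPM per kilobase, since its exons span 116825 bases in the annotation. The lowest were the myosin-binding protein H gene Mybph at 0.066 and the repeat protein gene Xirp1 at 0.116. These values take the reads as spread along the transcripts, which the sources used here do not state. Of the 45 genes, 8 had too few counts to be tested. They were Tnni1, Myl2, Myl4, Mybph, Myom2, Xirp1, Smyd1 and Cav3, with at most 28 counts in any library (Smyd1) and as few as 3 (Mybph).

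The first comparison asked which contractile genes separate the brightest from the dimmest Myf5 reporter cells. Ryr1 and Atp2a1, which release and recover the calcium that starts contraction, were lower in Myf5High, and Des was higher. Genes are described as called where edgeR's quasi-likelihood test gave a Benjamini-Hochberg adjusted p under 0.05 over all 11730 genes tested. Of the 37 tested genes, 3 were called, 1 higher and 2 lower in Myf5High, beside 1.2% of all genes tested (0.767% higher and 0.435% lower). The median log2 fold change was -0.21 over the 37 genes and -0.02 over all genes tested. Single libraries moved the former by over 1.5 times. It was -0.08 without male Myf5Low replicate 2, and -0.43 without male Myf5High replicate 1, -0.44 without male Myf5Low replicate 1, -0.49 without female Myf5High replicate 1 and -0.38 without female Myf5Low replicate 2. Another 8 of the 37 had an unadjusted p under 0.05 and were not called, which makes 11 with such a p, beside 9.36% of all genes.

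Ryr1 (ENSMUSG00000030592, chromosome 7, 29003344 to 29125179, GRCm38) encodes the calcium release channel of the sarcoplasmic reticulum. It had 11.9 and 15.8 CPM (female) and 22.3 and 24.6 CPM (male) in Myf5High cells, and 51.6 and 33.6 CPM (female) and 71.1 and 56.7 CPM (male) in Myf5Low cells. Every Myf5High library lay below every Myf5Low library, and in both sexes the Myf5Low libraries were the higher ones. The mean was 18.7 ± 5.84 CPM over the 4 Myf5High libraries and 53.2 ± 15.5 CPM over the 4 Myf5Low ones (± SD). Ryr1 fell by 1.53 on the log2 scale (SE 0.258, edgeR adjusted p 0.00348). It was called in each of the 8 fits that left out 1 library, with edgeR adjusted p-values from 0.00571 to 0.0407.

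Atp2a1 (ENSMUSG00000030730, chromosome 7, 126445858 to 126463108) encodes the calcium pump of fast fibres, which returns calcium to the store. Its levels were 22.3 and 16.3 CPM in the female and 42.0 and 41.0 CPM in the male Myf5High libraries, and 77.1 and 58.7 CPM in the female and 63.7 and 65.8 CPM in the male Myf5Low ones. Myf5High and Myf5Low libraries did not overlap here either. The gap was wider in females, though the difference between the sexes in the fraction effect was not called by edgeR (-1.18, SE 0.454). Myf5High averaged 30.4 ± 13.1 CPM and Myf5Low 66.3 ± 7.77 CPM (SD, n = 4 each). The difference was -1.23 on the log2 scale with an SE of 0.229 (adjusted p 0.00779 by edgeR). Without female Myf5High replicate 2 or female Myf5Low replicate 1 it was not called (edgeR adjusted p 0.086 and 0.0511). Ryr1 and Atp2a1 were the 2 of 37 tested genes whose fractions did not overlap, beside 4.58% of all genes tested. Atp2a1 shares exon sequence with Rabep2 on the other strand. Rabep2 had 502 counts to the 1525 of Atp2a1 over all libraries, and its own difference was -0.24 on the log2 scale (edgeR adjusted p 0.926).

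Des (ENSMUSG00000026208, chromosome 1, 75360329 to 75368579) had 2172 and 1814 CPM (female) and 1284 and 1206 CPM (male) in Myf5High cells, and 1365 and 863 CPM (female) and 627 and 837 CPM (male) in Myf5Low cells. Female Myf5High libraries lay above female Myf5Low ones and male Myf5High libraries above male Myf5Low ones, while female Myf5Low replicate 1 lay above both male Myf5High libraries. Myf5High averaged 1619 ± 457 CPM and Myf5Low 923 ± 313 CPM (SD, n = 4 each). The difference was 0.80 on the log2 scale with an SE of 0.191 (adjusted p 0.0469 by edgeR). This call was near the threshold. Of the 8 fits that left out a library, 6 did not make it, among them those without male Myf5High replicate 1 (0.78, edgeR adjusted p 0.0751) and without female Myf5High replicate 1 (0.73, edgeR adjusted p 0.314). The other 4 left out, in turn, female Myf5High replicate 2, female Myf5Low replicate 2, male Myf5Low replicate 1 and male Myf5Low replicate 2.

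**Figure D2:**
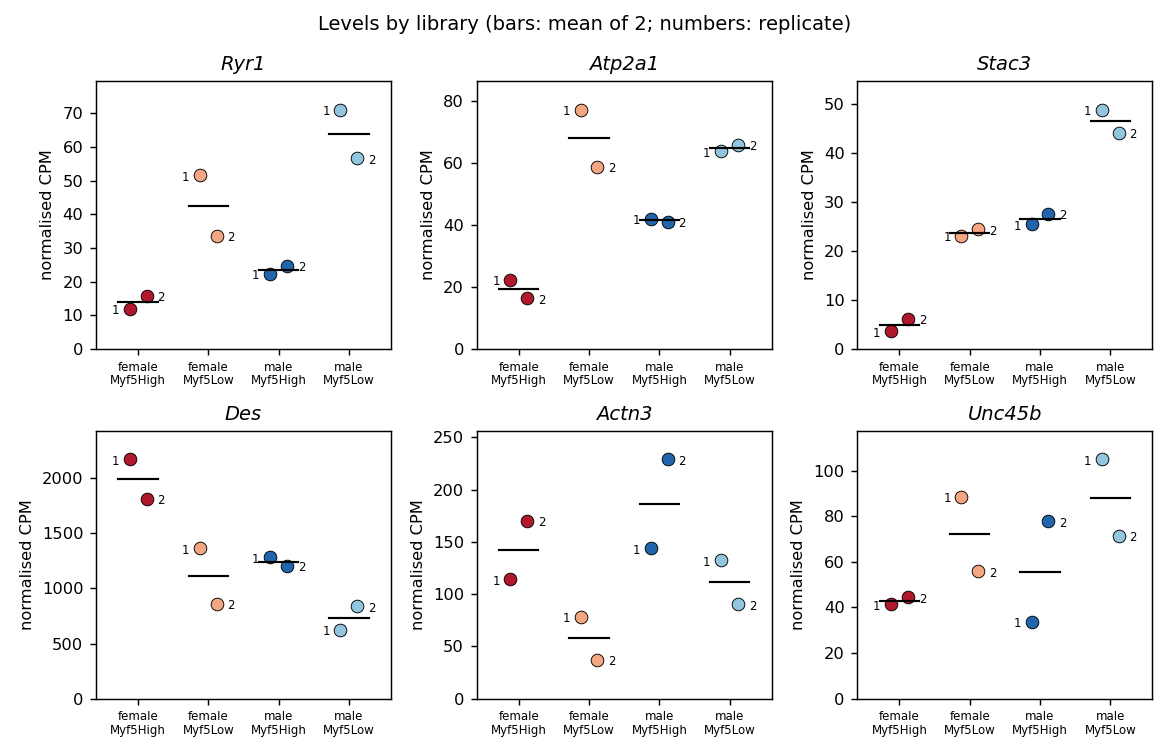
Levels in CPM (linear axes from 0) of Ryr1, Atp2a1, Stac3, Des, Actn3 and Unc45b in the 4 groups, with a point per library, its replicate number beside it and a bar at the mean of 2 libraries. Ryr1 and Atp2a1 show all Myf5High points below all Myf5Low points, and Des shows the reverse order within each sex.

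The other calcium, membrane and energy genes were not called between the fractions. Casq1, the calcium buffer of the store, lay between 0.969 and 5.59 CPM, the myoglobin gene Mb between 10.3 and 28.9 CPM, and the muscle creatine kinase gene Ckm between 5.85 and 26.6 CPM. Their log2 fold changes were -0.07, -0.11 and 0.23 (edgeR adjusted p 0.995, 0.977 and 0.948). The caveolin gene Cav3 of the fibre membrane had at most 18 counts in a library and was not tested.

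Among the genes of the Z disc, the M band and the elastic filament, Actn3 came nearest to a call. It had 114 and 170 CPM in the female and 144 and 229 CPM in the male Myf5High libraries, and 78.4 and 36.8 CPM in the female and 132 and 90.3 CPM in the male Myf5Low ones. Within each sex the Myf5High libraries were the higher ones, and across the sexes they overlapped. The log2 fold change of 1.02 had an SE of 0.250 (adjusted p 0.0555 by edgeR), and Actn3 was called without male Myf5High replicate 1 (1.17, edgeR adjusted p 0.021) and without female Myf5Low replicate 1 (1.34, edgeR adjusted p 0.028). The related gene Actn2 was far lower, from 0 CPM in female Myf5High replicate 2 to 7.98 CPM in female Myf5Low replicate 2. Tcap, the titin cap, lay between 6.10 and 48.6 CPM and differed by a log2 fold change of 0.09 (edgeR adjusted p 0.984). Myom1 of the M band, Ldb3 and Myoz1 of the Z disc did not exceed 24.8, 6.34 and 4.80 CPM.

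Ttn, whose protein spans from the Z disc to the M band, had 42.6 and 19.3 CPM (female) and 626 and 78.1 CPM (male) in Myf5High cells, and 196 and 200 CPM (female) and 72.7 and 432 CPM (male) in Myf5Low cells. The female fractions were apart, while each male group held 1 high and 1 low library. The male Myf5High libraries differed 8.01-fold from each other, more than the female ones, which differed 2.21-fold. Over both sexes the log2 fold change of -1.10 had an SE of 0.495 (adjusted p 0.488 by edgeR). It was -2.19 without male Myf5High replicate 1, where alone among the 8 fits that left out 1 library Ttn was called. Over these 8 fits it ran from -2.19 to -0.21.

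The chaperone gene Unc45b, whose product folds myosin heads, was detected in every library. Its levels were 41.3 and 44.5 CPM in the female and 33.6 and 77.8 CPM in the male Myf5High libraries, and 88.6 and 55.9 CPM in the female and 105 and 71.3 CPM in the male Myf5Low ones. The female fractions did not overlap and the male ones did. The log2 fold change of -0.71 had an SE of 0.265 (adjusted p 0.334 by edgeR). Among the 8 fits that left out 1 library Unc45b was called only in the one without male Myf5High replicate 2 (-1.07). Over these fits the value ran from -1.07 to -0.46. Smyd1, a methyltransferase of muscle, reached 6.57 CPM at most and was not tested.

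On the thin filament, the gene with the highest mean CPM was Tpm1. Its levels were 151 and 146 CPM (female) and 238 and 274 CPM (male) in Myf5High cells, and 196 and 172 CPM (female) and 270 and 284 CPM (male) in Myf5Low cells. All female libraries lay below all male ones, and the difference between the fractions was -0.21 on the log2 scale (edgeR adjusted p 0.822). Of the 12 tested thin filament genes, 5 had an unadjusted p under 0.05, beside 9.36% of all genes, while edgeR called 0 after adjustment and DESeq2 0, and the median log2 fold change was -0.46. Nebulin, the ruler of the thin filament, had the lowest adjusted p of these. Neb had 18.7 and 15.8 CPM in the female and 90.9 and 17.4 CPM in the male Myf5High libraries, and 59.8 and 63.4 CPM in the female and 39.6 and 93.2 CPM in the male Myf5Low ones. The fractions overlapped, with male Myf5High replicate 1 above every Myf5Low library except male Myf5Low replicate 2. Over all libraries the log2 fold change of -1.06 had an SE of 0.375 (adjusted p 0.286 by edgeR), and without male Myf5High replicate 1 the value was -1.88. Over the 8 fits that left out 1 library the value ran from -1.88 to -0.69, and Neb was called in the former alone.

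The adult troponin genes differed in level and spread. Tnnt1, slow troponin T, lay between 41.6 and 93.2 CPM, Tnnt3, the fast one, between 10.4 and 51.7 CPM, Tnni2, fast troponin I, between 16.9 and 49.4 CPM, and Tnnc2 between 18.3 and 101 CPM. Acta1 lay between 20.6 and 91.5 CPM, with a log2 fold change of -0.39 (edgeR adjusted p 0.813). Tnnc1, the slow and cardiac troponin C gene, had 0 counts in both female Myf5Low libraries and in male Myf5Low replicate 1, and 18.2 CPM in male Myf5High replicate 1. The leiomodin gene Lmod3, which helps actin filaments form, did not exceed 2.82 CPM.

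Of the thick filament genes, Mybpc1 had the highest mean CPM and the highest mean per kilobase. Its levels were 145 and 155 CPM (female) and 137 and 164 CPM (male) in Myf5High cells, and 187 and 111 CPM (female) and 185 and 167 CPM (male) in Myf5Low cells. Myf5High and Myf5Low libraries overlapped in females and not in males, where Myf5Low was the higher, and the fractions differed by -0.11 on the log2 scale (edgeR adjusted p 0.949). Of the 11 tested thick filament genes, 0 were called between the fractions by edgeR or by DESeq2 and 0 had an unadjusted p under 0.05, with a median log2 fold change of -0.11. The adult fast myosins Myh4 (type IIb) and Myh1 (type IIx) lay between 6.81 and 45.3 CPM and between 4.07 and 12.3 CPM. The slow myosin Myh7 lay between 0.323 and 16.2 CPM.

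The developmental isoforms varied most between libraries. Myh3 and Myh8 are the embryonic and perinatal myosins, Myl4 an embryonic light chain, and Actc1 and Tnnt2 the actin and troponin T genes of heart that developing skeletal muscle also uses. Summed over these 5 genes, the level was 2.58 and 6.86 CPM in the female and 540 and 5.25 CPM in the male Myf5High libraries, and 46.6 and 115 CPM in the female and 14.5 and 266 CPM in the male Myf5Low ones. Male Myf5High replicate 1 was the highest of the 8 and male Myf5High replicate 2 the second lowest. The 14 adult fast isoforms summed to between 189 and 530 CPM and the 6 slow ones to between 53.7 and 125 CPM. The developmental sum was 0.00705 and 0.0244 of the fast sum in the female Myf5High libraries and 1.02 times the fast sum in male Myf5High replicate 1. Of the 13 tested fast isoforms 1 was called between the fractions, Atp2a1, beside 1.2% of all genes. Of the 4 tested developmental and the 4 tested slow ones edgeR called 0 and DESeq2 0, with 2 of each at an unadjusted p under 0.05, beside 9.36% of all genes.

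**Figure D3:**
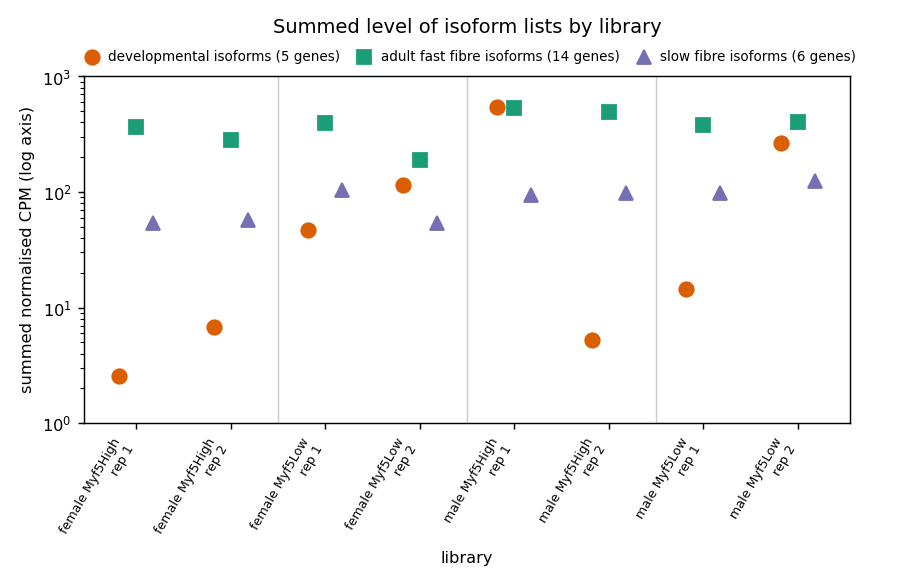
Summed CPM (log axis) of 5 developmental, 14 adult fast and 6 slow isoform genes in each of the 8 libraries. The fast sums lie between 189 and 530 CPM and the slow sums between 53.7 and 125 CPM, while the developmental sums run from 2.58 CPM in female Myf5High replicate 1 to 540 CPM in male Myf5High replicate 1.

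Actc1 (ENSMUSG00000068614, chromosome 2, 114047282 to 114053548) had 0.646 and 1.78 CPM (female) and 299 and 2.30 CPM (male) in Myf5High cells, and 22.5 and 87.1 CPM (female) and 9.84 and 112 CPM (male) in Myf5Low cells. The counts behind these levels, in the same order, were 2, 7, 1248, 7, 82, 371, 44 and 470. The male Myf5High libraries differed 130-fold. Tnnt2 had 0 and 1.27 CPM in the female and 41.7 and 1.31 CPM in the male Myf5High libraries, and 17.3 and 15.5 CPM in the female and 2.01 and 40.8 CPM in the male Myf5Low ones, the same order of high and low libraries in males. Myh8 reached 20.1 CPM in male Myf5High replicate 1 and 11.4 CPM in male Myf5Low replicate 2, and stayed at or below 4.93 CPM in the remaining libraries. The fast light chain Myl1 and Tpm2, which are not on the developmental list, were also highest in these libraries. Myl1 had 57.1 and 52.7 CPM there, against 2.54 to 18.9 CPM in the other 6, and Tpm2 had 233 and 229 CPM, against 42.0 to 117 CPM.

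Mean CPM of Actc1 was higher in Myf5High, 76.0 against 57.9, through that 1 library, while the fit averages the log2 effects of the sexes. Neither Actc1 nor Tnnt2 was called between the fractions over all libraries, with log2 fold changes of -2.04 (SE 0.956) and -2.24 (SE 0.878) and edgeR adjusted p-values of 0.519 and 0.375. Over the 8 fits that left out 1 library they ran from -5.06 to -0.73 and from -4.47 to -0.55. Without male Myf5High replicate 1, 7 of 37 genes were called. The 6 lower ones were Actc1 (-5.06, edgeR adjusted p 0.00274), Tnnt2 (-4.25, 0.0261), Ttn, Neb, Ryr1 (-1.49, 0.00914) and Atp2a1 (-1.24, 0.0142), beside 0.494% of all genes called lower in that fit, and the higher one was Actn3, beside 0.818%. Without both male Myf5High replicate 1 and male Myf5Low replicate 2, 5 genes were called lower, Actc1, Ttn, Neb, Ryr1 and Atp2a1, beside 0.494%, and 0 higher, beside 0.853%. Without male Myf5Low replicate 2 alone, 2 were called, Ryr1 and Atp2a1, both lower, beside 0.298%.

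The regulators Myog and Mymk were at 0 in male Myf5High replicate 1, where the developmental isoforms were highest, while Mef2c was high there. Myog, the myogenic factor of differentiating cells, had 0 CPM in that library, 0.646, 1.27 and 0.656 CPM in the other Myf5High libraries, 155 and 531 CPM in female Myf5Low, and 125 and 93.4 CPM in male Myf5Low. Mymk, which drives fusion, had 0 counts in every Myf5High library and 4.29 to 67.6 CPM in Myf5Low. The female Myf5Low libraries had more Myog and less Myh3 than male Myf5High replicate 1. Male Myf5Low replicate 2, the other library with high Myh3, had Myog at 93.4 CPM. Mef2c, a partner of the myogenic factors, was highest in male Myf5High replicate 1 at 130 CPM and male Myf5Low replicate 2 at 98.0 CPM, and lay between 15.5 and 57.5 CPM in the others. Pax7 had 1257 CPM in male Myf5High replicate 1. Mitochondrial genes took 2.82% of its gene counts, the highest share of the 8 libraries, and 0.694% in male Myf5High replicate 2, the lowest. The share was 1.06% and 1.76% in the male Myf5Low libraries. In females it was 1.31% and 2.53% in Myf5Low and 1.06% and 0.976% in Myf5High. The part of the regulators and of the mitochondrial share in these levels was not tested.

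**Figure D4:**
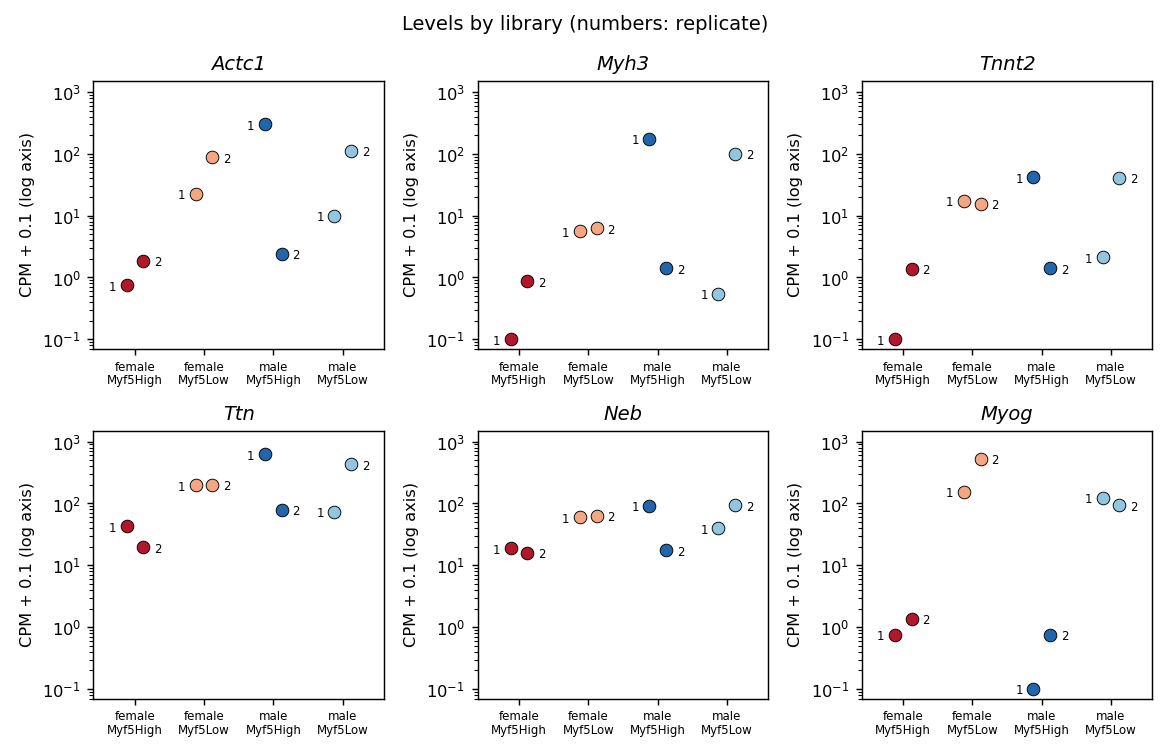
CPM + 0.1 on log axes for Actc1, Myh3, Tnnt2, Ttn, Neb and the regulator Myog in the 4 groups, with a point per library and its replicate number. For the first 3 genes the male groups each hold 1 high and 1 low library, and Myog is at or below 1.27 CPM in every Myf5High library.

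The fraction comparison was repeated within each sex. Of the 37 tested genes, 28 had a negative log2 fold change in females, beside 51% of all genes, and 13 did in males, beside 51.2%. The median was -0.70 in females and 0.16 in males, against -0.01 in both for all genes tested. The male median rested on single libraries, with -0.10 without male Myf5High replicate 1, -0.14 without male Myf5Low replicate 1, 0.45 without male Myf5High replicate 2 and 0.99 without male Myf5Low replicate 2. The female median ran from -0.91 to -0.38 when a library was left out, the latter without female Myf5Low replicate 1. It was also -0.70 with the 3 genes that had a group at 0 set to the bound from 3 counts per library. In females 18 of 37 had both Myf5High libraries below both Myf5Low libraries, beside 19.5% of all genes, and in males 4 did, beside 17.6%. Markers of some other cells also had negative values in females, 6 of 9 mural ones with a median of -0.81 5 of 6 endothelial ones with a median of -0.88, 2 of 3 immune ones (-0.95) and 2 of 3 glial ones (-0.76). Tendon markers (2 of 3 positive, median 1.06), fibro-adipogenic ones (2 of 3, 0.16) and muscle stem cell ones (8 of 9, 0.22) went the other way. In males 6 of 9 mural, 3 of 6 endothelial, 2 of 3 immune, 3 of 3 glial, 1 of 3 fibro-adipogenic, 0 of 3 tendon and 4 of 9 muscle stem cell markers were negative, with medians of -0.87, -0.15, -2.73, -0.52, 0.06, 0.75 and 0.10. Mitochondrial genes took 1.06% and 0.976% of gene counts in the female Myf5High libraries and 1.31% and 2.53% in the female Myf5Low ones. In males the shares were 2.82% and 0.694% in Myf5High and 1.06% and 1.76% in Myf5Low. The part of these cells and of the mitochondrial share in the fraction values was not tested. In females 1 gene was called, Atp2a1 (-1.82, SE 0.332, edgeR adjusted p 0.0183), beside 0.332% of all genes in either direction and 0.136% lower. That call was not made without any 1 of the 4 female libraries. Each such fit left a female group of 1 library, so the other groups gave the spread. Over all 8 fits that left out 1 library, the value for Atp2a1 ran from -2.07 to -1.61. Next came Ryr1 (-1.61, edgeR adjusted p 0.0798), Actn3 (1.31, 0.178), Ttn (-2.69, 0.179), Actc1 (-5.40, 0.207), Neb (-1.84, 0.241), Tnnt2 (-4.5, 0.296) and Actn2 (-5.12, 0.309). Fitted to the female libraries alone, 6 genes were called lower, beside 0.375% of all genes. Without male Myf5High replicate 1, 5 were called lower in females, Atp2a1, Ryr1, Actc1, Ttn and Neb, beside 0.35%.

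In males edgeR called 0 of the 37 genes, beside 0.171% of all genes. At an unadjusted p under 0.05 there were 3, Ryr1, Des and Actn3, beside 6.67%, and DESeq2 called 1. The male log2 fold changes were -1.45 for Ryr1 (SE 0.359, edgeR adjusted p 0.162), -0.64 for Atp2a1 (0.762), 0.77 for Des (0.495) and 0.74 for Actn3 (0.745). Those of the developmental genes had wide errors, such as 1.32 for Actc1 (SE 1.07) and 0.82 for Myh3 (SE 1.2).

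The difference between the sexes in the fraction effect was tested itself. By edgeR 0 of the 37 genes passed, beside 0% of all genes tested, with 5 at an unadjusted p under 0.05, beside 4.54%, and DESeq2 called 0 of the 37 and 2 of all genes. The 5 were Actn2 (-7.00, SE 2.06), Actc1 (-6.72, SE 1.9), Tnnt2 (-4.53, SE 1.76), Ttn (-3.17, SE 0.999) and Atp2a1 (-1.18, SE 0.454), with the male effect subtracted from the female one and edgeR adjusted p-values from 0.917 to 1.00. For Actc1 this difference was -0.70 without male Myf5High replicate 1, for Ttn -1.0 and for Tnnt2 -0.51. Other libraries moved it the other way. It was -9.34 for Actc1, -4.97 for Ttn and -7.92 for Tnnt2 without male Myf5Low replicate 2, and -9.0 for Tnnt2 without female Myf5High replicate 2, which left a group at 0 counts. For Ryr1 and Des it was -0.16 and 0.07.

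**Figure D5:**
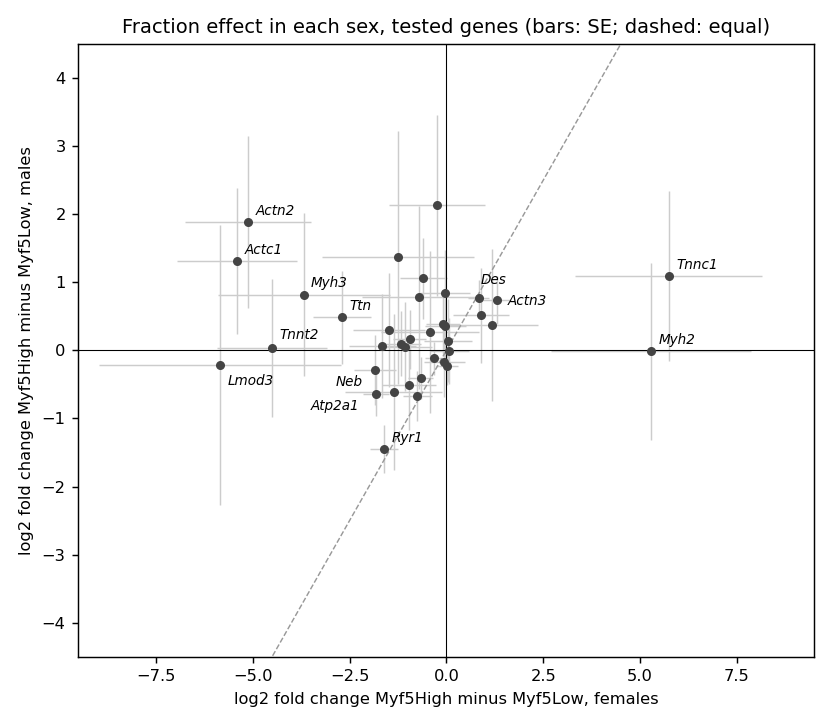
Log2 fold change of Myf5High against Myf5Low in females (x axis) and in males (y axis, a different scale) for the 37 tested genes, with bars of 1 SE and a dashed line where both are equal. Ryr1 and Des lie near the line, while Actc1 and Actn2 are negative in females and positive in males, with wide bars. Lmod3, Tnnc1 and Myh2 have a female group at 0 counts, so their fitted values depend on the prior count.

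Female cells were then compared with male cells, taking both fractions together. The embryonic myosin gene Myh3 and the tropomyosin gene Tpm1 were called lower in females, and both calls depended on single libraries. Of the 37 tested genes, 2 were called, both lower in females, beside 1.65% of all genes called (0.921% lower). In all, 34 of the 37 had a negative log2 fold change, beside 51.3% of all genes, and the median was -0.80, against -0.02 for all genes tested. These values moved with single libraries of both sexes, the median from -1.07 without female Myf5Low replicate 1 to -0.60 without female Myf5Low replicate 2 among the female ones. Without male Myf5High replicate 1, 31 of 37 were negative (48.7% of all genes) with a median of -0.64, without male Myf5Low replicate 2 alone 30 were, with a median of -0.53, and without both libraries 22 of 37 were (46.9% of all genes) with a median of -0.09. If the fractions of a pool number share their mice, only 2 pools per sex stand behind this comparison.

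Tpm1 was lower in every female library than in every male library, and was the only 1 of the 37 tested genes without overlap between the sexes, beside 7.08% of all genes. Females averaged 166 ± 22.8 CPM and males 267 ± 20.0 CPM (SD, n = 4 each). The difference was -0.69 on the log2 scale with an SE of 0.171 (adjusted p 0.049 by edgeR). It was called without male Myf5High replicate 1 (-0.74, edgeR adjusted p 0.0239) and without both that library and male Myf5Low replicate 2 (-0.72, 0.0432). In each of the 7 remaining fits that left out 1 library it was not called, with edgeR adjusted p-values from 0.0885 to 0.215, and with the summed counts of each pool it was 0.067.

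Myh3 (ENSMUSG00000020908, chromosome 11, 67078300 to 67102291) had 0 and 0.763 CPM (female) and 175 and 1.31 CPM (male) in Myf5High cells, and 5.48 and 6.10 CPM (female) and 0.447 and 99.9 CPM (male) in Myf5Low cells, from 0, 3, 728, 4, 20, 26, 2 and 419 counts in that order. The male libraries split into 2 far above the females and 2 within their range. Females averaged 3.09 ± 3.15 CPM and males 69.0 ± 84.4 CPM (SD, n = 4 each), so that the SD among males exceeded their mean. The log2 fold change of -5.35 had an SE of 1.21 (adjusted p 0.0279 by edgeR). It was -2.34 without male Myf5High replicate 1 (edgeR adjusted p 0.373), -2.0 without male Myf5Low replicate 2 (0.7) and 0.99 without both (0.781). The call was also not made without any 1 of the 4 female libraries (edgeR adjusted p 0.131 to 0.21), nor by DESeq2 (adjusted p 0.0771).

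Several genes missed the threshold by little in this comparison. Ttn (-1.93), the fast type IIa myosin Myh2 (-5.40) and Tnnc1 (-5.11) each had an edgeR adjusted p of 0.061, Actc1 (-3.51) had 0.0727 and Tpm2 (-1.16) 0.109. These values moved with the same male libraries. Ttn was at -0.85, Actc1 at -0.50 and Tpm2 at -0.65 without male Myf5High replicate 1, and without male Myf5Low replicate 2 they were at -1.04, -2.19 and -0.54 and Tnnc1 at -1.40. Without both libraries Ttn (0.050) and Actc1 (0.81) were above 0, Tpm2 was at -0.04, Tnnc1 at -0.85 and Myh2 at -2.74. Myh2 and Tnnc1 had 0 counts in both female Myf5Low libraries, so their fitted values depend on the prior count. Myh2 had 15.1 CPM in male Myf5High replicate 1 and 16.0 CPM in male Myf5Low replicate 2, against at most 2.58 CPM in the other 6 libraries. Without male Myf5High replicate 2, a low library for these genes, 8 of the 37 were called lower in females, beside 0.81% of all genes. Without male Myf5High replicate 1, 1 was called, beside 1.7%. With the counts of each pool summed, 7 were called lower, beside 0.938%, among them Myh3, Ttn, Actc1, Tpm2, Tnnc1 and Myh2. Des went the other way, with a log2 fold change of 0.64 (edgeR adjusted p 0.108). All 13 tested adult fast isoforms and all 11 tested thick filament genes had negative values in this comparison, beside 51.3% of all genes, with medians of -0.67 and -1.37, and of these Myh3 alone was called. Without both male Myf5High replicate 1 and male Myf5Low replicate 2, 10 of the 13 and 6 of the 11 were negative, beside 46.9%, with medians of -0.28 and -0.09. Single libraries moved the fast median to between -1.08 (without female Myf5Low replicate 1) and -0.43 (without female Myf5Low replicate 2), and the thick filament median to -0.86 without male Myf5High replicate 1 and -0.47 without male Myf5Low replicate 2.

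Other genes of contraction, from a list of 58 that does not overlap the 45, were set beside them. Of 36 tested, 2 were called lower in Myf5High, beside 0.435% of all genes, and 0 higher, beside 0.767%, and the median log2 fold change was -0.01. Stac3, which couples the voltage sensor of the fibre membrane to Ryr1, had 3.55 and 6.10 CPM in the female and 25.4 and 27.6 CPM in the male Myf5High libraries, and 23.0 and 24.4 CPM in the female and 48.7 and 44.1 CPM in the male Myf5Low ones. It was lower in Myf5High within each sex, with a log2 fold change of -1.54 and an SE of 0.286 (adjusted p 0.00771 by edgeR), and was not called without female Myf5High replicate 1 (-1.39, edgeR adjusted p 0.0816). Mylk4, of the myosin light chain kinase family, had 1.61 and 0.763 CPM (female) and 2.40 and 0.985 CPM (male) in Myf5High cells, and 25.8 and 30.7 CPM (female) and 13.0 and 7.87 CPM (male) in Myf5Low cells. Mylk4 was low in all Myf5High libraries, with a log2 fold change of -3.56 and an SE of 0.499 (adjusted p 0.000603 by edgeR). Between the sexes 3 of the 36 were called, all lower in females, beside 0.921% of all genes. They were Stac3 (-1.70, edgeR adjusted p 0.0035), the calcium channel subunit gene Cacnb1 (-1.44, 0.0357) and the light chain gene Myl6b (-3.68, 0.0395). Myl6b was highest in male Myf5High replicate 1 at 25.4 CPM and male Myf5Low replicate 2 at 19.3 CPM, and without the former it was not called (-2.02, edgeR adjusted p 0.269). With a library left out, Myl6b was called in 1 of 8 fits, the one without male Myf5High replicate 2, and Cacnb1 in 2, those without male Myf5High replicate 1 and without male Myf5Low replicate 1 (edgeR adjusted p up to 0.177 in the others), while Stac3 was called in all 8.

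Energy genes of mature fibres were set beside the contractile ones. Of 16 such genes, 12 were tested and 0 were called by edgeR in any of the 5 contrasts, with 1 DESeq2 call, in females. An unadjusted p under 0.05 was reached by 2 for the fractions, beside 9.36% of all genes, by 2 in females (7.36%), 0 in males (6.67%), 3 for the difference between the sexes in the fraction effect (4.54%) and 2 between the sexes (13.9%). Their sum lay between 332 and 526 CPM. Of 12 regulators of muscle genes, 10 were tested and 3 were called lower in Myf5High, beside 0.435% of all genes. They were Myog (-8.42, edgeR adjusted p 2.24e-08), Mymk (0.000108) and Cdkn1c (-4.43, 9.68e-08). Between the sexes Srf, the factor that binds the CArG box, was higher in females (0.91, edgeR adjusted p 0.0329) and Mef2c lower (-1.30, 0.049), which makes 2 of the 10, beside 1.65% of all genes. Each was not called in 6 of the 8 fits with a library left out. Srf was called without male Myf5High replicate 1 and without male Myf5Low replicate 2, and reached an edgeR adjusted p of 0.196 in the others. Mef2c was called without male Myf5High replicate 2 and without male Myf5Low replicate 1, and reached 0.226 in the others. Smooth muscle and pericytes also express actins, tropomyosins and desmin, so markers of mural cells are given here. Their 9 genes summed to 392 to 508 CPM in Myf5High and 420 to 798 CPM in Myf5Low. Of the 9, 1 was called, Acta2, lower in Myf5High (-1.73, edgeR adjusted p 0.000389), beside 0.435% of all genes. Between the fractions 5 of the 9 had an unadjusted p under 0.05, beside 9.36% of all genes, with Notch3 among them higher in Myf5High. In all, 7 of the 9 were negative, beside 51.9% of all genes, with a median log2 fold change of -0.40. The summed level was 475 CPM in male Myf5High replicate 1 and 736 CPM in male Myf5Low replicate 2. Summed levels over all libraries were 161 to 419 CPM for 6 endothelial markers, 8.15 to 46.9 CPM for 5 immune, 77.0 to 147 CPM for 4 fibro-adipogenic, 38.9 to 119 CPM for 4 glial and 6.89 to 39.9 CPM for 3 tendon markers. In that order they were 300, 8.15, 147, 45.1 and 35.5 CPM in male Myf5High replicate 1. In male Myf5Low replicate 2 they were 419, 46.2, 140, 119 and 11.7 CPM. Of these markers, the macrophage gene C1qa was called lower in Myf5High (-2.13, edgeR adjusted p 0.00771), beside 0.435% of all genes. Of the 9 muscle stem cell markers 1 was called, Calcr, higher in Myf5High (0.89, edgeR adjusted p 0.0389), beside 0.767% of all genes. Between the sexes edgeR called 0 genes of the marker lists, though 3 mural, 3 endothelial, 1 immune and 1 tendon gene had an unadjusted p under 0.05, beside 13.9% of all genes, and DESeq2 called 1 endothelial gene. In that comparison all 6 endothelial markers had values below 0 (median -0.75), as did all 3 tested glial (-0.77) and all 3 tested fibro-adipogenic ones (-0.37), 5 of 9 mural ones (-0.22) and 2 of 3 tendon ones (-0.17), beside the listed genes at -0.80. Of the 3 tested immune markers 2 were above 0 (median 0.23), as were 6 of 9 muscle stem cell markers (0.17). The part of these cells in the levels of the listed genes was not tested.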

How the data were processed

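Read counts per Ensembl mouse gene were deposited by the authors as whole numbers, with no normalisation, for 8 libraries. Counting used HTSeq on GRCm38, per the submitters' processing notes, while the aligner, annotation release and strand setting were not given in the sources used here. Without a strand setting, 20 of the 45 genes, which share exon bases with a gene on the other strand, are uncertain to that extent. Tallies of unassigned reads (42.2% to 45.5% of all reads listed per library) were left out. The transcript Gm42418 took 20.1% to 28.8% of gene counts. Symbols, coordinates and exon lengths came from GENCODE M21, in which 27518 of 27554 identifiers were found.

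Groups came from the sample titles. Genes were filtered with filterByExpr (minimum count 10, minimum total 15), which left 11730 genes and 37 of the 45, and were tested with edgeR 4.0.16 in R 4.3.3 (TMM scaling, 1 mean per group, glmQLFit and glmQLFTest, two-sided, Benjamini-Hochberg). The filter can keep a gene through a group where it is high. The common biological coefficient of variation was 0.36. Fits were tested on simulated data. Replicates of a group are separate pools per the labels. The p-values measure the spread between libraries of a group, with the estimate of spread shared across groups and genes. The comparison of the sexes took all libraries of a sex as separate, although the fractions of a pool number may share mice. Floors cover counting error only.

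The genes, lists and tests were chosen with earlier results of these data known. Any of the 45 genes could be named, and full values were given for called genes and for the gene with the highest mean CPM in each role. The further genes given in full (Actn3, Actc1, Ttn, Neb, Tnnt2) were chosen after their values were seen. Actn2 was also given in full, as a result flagged for a closer look. Of the lists of other contraction, energy and regulator genes, called genes were named, at most 4 per direction, and marker lists were given by sums and counts. Alternatives were RLE scaling, no filter, a filter at a mean of 50 counts, DESeq2 1.42.0, an additive model, fits of the libraries compared, replicate blocks, pool sums, CPM without Gm42418 and mitochondrial genes, and leaving out each library. Leaving out male Myf5High replicate 1 and male Myf5Low replicate 2 together was chosen after seeing the data. With a library left out, its group held 1 library and the other groups gave the spread.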

Additional observations from a re-analysis of the deposited data

Results flagged for a closer look

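Actn2, alpha-actinin of the Z disc, had lower levels in Myf5High in females and higher levels in Myf5High in males, without a called difference between the sexes. Both female Myf5High libraries (0.323 and 0 CPM) lay below both female Myf5Low libraries (4.39 and 7.98 CPM), and both male Myf5High libraries (5.04 and 4.60 CPM) lay above both male Myf5Low libraries (0.894 and 1.67 CPM). Of all genes tested, 19.5% had libraries apart and lower in Myf5High in females, and 15.5% had them apart and higher in males. For Actn2, subtracting the male effect from the female one gave -7.00 on the log2 scale (SE 2.06). This difference was tested by the interaction term and did not pass (edgeR adjusted p 0.917 over all genes tested). The levels rest on few counts, and in female Myf5High on 1 count in 1 library and 0 in the other.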

How the results depend on the processing

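Of 618 values of named genes under other settings, 615 kept their direction, 66 lost a call and 67 gained one. The 3 reversed values were those of the sex difference of Myh3 (0.99), Ttn (0.050) and Actc1 (0.81) without both male Myf5High replicate 1 and male Myf5Low replicate 2. Over all fits that left out libraries these ran from -7.25 to 0.99, from -2.35 to 0.050 and from -4.15 to 0.81. The cause was not tested.

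Counts of called genes are given for all genes, then for the 45 listed ones, where they moved by over 1.5 times from 141 and 3 (fractions), 39 and 1 (females), 20 and 0 (males), 0 and 0 (interaction) and 194 and 2 (sexes). No filter on low counts gave 291 and 9, 167 and 9, 111 and 2, 14 and 4, and 477 and 12. DESeq2 gave 234 genes for the fractions, 111 and 2 in females, 80 and 1 in males, 2 for the interaction and 371 for the sexes. Fits of the libraries compared gave 120 and 6 in females and 7 genes in males. Summed pool counts gave 7 listed genes between the sexes. Leaving out both libraries gave 5 listed genes for the fractions, 116 and 6 in females and 536 genes for the sexes. Leaving out 1 library gave 67 to 205 genes and 1 to 7 listed ones for the fractions, 8 to 101 and 0 to 5 in females, 7 to 55 and 0 to 0 in males, 0 to 1 and 0 to 0 for the interaction, and 69 to 501 and 0 to 8 for the sexes. RLE scaling and the filter at a mean of 50 counts ended the call of Des (edgeR adjusted p 0.0507 and 0.0605) and moved no count by over 1.5 times.

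Libraries of one pool number did not deviate together (correlation 0.0275 in females and -0.000273 in males), so the numbers were not taken as pairs. A single correlation per sex over all genes tested cannot exclude that the fractions of a pool number shared mice. With the pool as a replicate block, 136 genes and 3 listed ones were called for the fractions, 33 and 1 in females, 26 and 0 in males and 0 and 0 for the interaction. With the replicate number as a block, 135 genes and 1 listed one, Myh3, were called for the sexes, and Tpm1 was not (edgeR adjusted p 0.0872). That block also left Myl6b (0.0685), Cacnb1 (0.0602), Mef2c (0.0764) and Srf (0.0554) uncalled between the sexes, and the blocks changed no other of the 41 calls of named genes.

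Depth limits the low genes. The floor of 3 counts was 0.708 to 0.955 CPM, and the 8 genes with too few counts were not tested. CPM without Gm42418 and mitochondrial genes was 1.24 to 1.47 times the level given, by library.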
